A study of Homo sapiens with 11 samples.

Results

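Ikaros binding was examined at 10 genes for transcription factors of the later B cell stages, BACH2, BCL6, PRDM1, IRF4, IRF8, POU2F2, POU2AF1, MEF2C, ID3 and KLF2, out of 20007 protein-coding genes in the annotation. Every Ikaros peak that carried the gene's name in the authors' annotation, overlapped the gene, or lay within 1000 bp of one of its transcription start sites (TSSs) was taken, which gave 267 of 300249 peaks in 5 lists. The peaks came from chromatin immunoprecipitation and sequencing (ChIP-seq) of Ikaros, the zinc finger protein encoded by IKZF1, in established lines of human precursor B cell leukemia. The lists were from JM1 and Nalm6 cells given the CK2 kinase inhibitor CX-4945 (20 µM, 1 day), and from REH, 697 and JM1 cells left untreated. JM1 and REH chromatin was precipitated with the Bethyl antibody A303-516A, and 697 and Nalm6 chromatin with an affinity-purified antibody, so line and antibody cannot be told apart. Each condition had 1 list, so no difference between lists has a replicate check and no p-value is given. Nalm6 had 2 Ikaros libraries and a single list, and the sources used do not say whether 1 or both went into it. Untreated Nalm6 cells and treated REH or 697 cells were not analysed here, which leaves JM1 as the line in which treated and untreated lists can be set side by side.

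These genes form a linked circuit. In mature B cells BCL6 and BACH2 are repressors that hold cells in the germinal centre or memory state, and PRDM1 (Blimp1) is the repressor that ends that state and commits cells to antibody secretion, while IRF4 and IRF8 are related factors that act at the pre-B stage and again in the germinal centre. POU2F2 (the octamer factor Oct2) and its B cell coactivator POU2AF1 drive octamer-containing promoters, MEF2C relays B cell receptor signals, ID3 blocks E proteins, and KLF2 keeps lymphocytes quiescent and in circulation. Ikaros, a regulator of the pre-B stage and a frequent target of deletion in B cell leukemia, binds DNA through a core that reads GGGAA.

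The stretches of sequence that carry the shared peaks are shown first, because the 5 lists overlapped on them. They are 300 bases or fewer, centred on the stretch common to the peaks, on the plus strand of GRCh38, from 5′ to 3′, with GGGAA or its reverse complement TTCCC in capitals. The first 3 are promoter sites with a high median score percentile among genes with a peak near a TSS in all 5 lists. IRF4 (chr6:392456-392755) lies in intron 1 of the canonical transcript. POU2F2 (chr19:42176958-42177152) lies 44.6 kb upstream of the canonical TSS, inside the gene record and beside another annotated TSS, and the 105 bases of the window that are annotated as UTR are left out. KLF2 (chr19:16325669-16325968) lies in exon 2.
IRF4: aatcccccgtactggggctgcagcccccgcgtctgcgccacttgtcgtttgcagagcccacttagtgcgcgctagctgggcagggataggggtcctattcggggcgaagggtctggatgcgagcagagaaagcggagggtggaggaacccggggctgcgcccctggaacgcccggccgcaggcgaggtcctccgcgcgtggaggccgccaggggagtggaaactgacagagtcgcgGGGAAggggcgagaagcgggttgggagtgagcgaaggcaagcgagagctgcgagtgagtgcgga
POU2F2: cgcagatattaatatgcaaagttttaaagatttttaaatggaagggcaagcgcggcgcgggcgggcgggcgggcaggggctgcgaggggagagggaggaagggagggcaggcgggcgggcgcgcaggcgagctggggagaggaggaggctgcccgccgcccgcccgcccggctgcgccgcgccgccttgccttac
KLF2: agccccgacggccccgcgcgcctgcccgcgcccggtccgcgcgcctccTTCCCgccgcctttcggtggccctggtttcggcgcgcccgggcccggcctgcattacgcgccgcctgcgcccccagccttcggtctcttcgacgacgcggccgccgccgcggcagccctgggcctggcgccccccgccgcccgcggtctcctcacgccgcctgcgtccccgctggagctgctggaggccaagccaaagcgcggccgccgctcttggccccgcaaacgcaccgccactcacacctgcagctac
GC content was 68.0% in the IRF4 stretch, 69.7% in POU2F2 and 78.7% in KLF2. The POU2F2 stretch held 0 copies of GGGAA and the IRF4 and KLF2 stretches 1 each.

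A single gene body region outside the TSS windows was held by all 5 lists, at POU2F2. Its window (chr19:42153829-42154128) lies 21.5 kb upstream of the canonical TSS, within the POU2F2 record and the overlapping antisense gene POU2F2-AS2, and has 2 adjoining copies of TTCCC.
POU2F2 gene body: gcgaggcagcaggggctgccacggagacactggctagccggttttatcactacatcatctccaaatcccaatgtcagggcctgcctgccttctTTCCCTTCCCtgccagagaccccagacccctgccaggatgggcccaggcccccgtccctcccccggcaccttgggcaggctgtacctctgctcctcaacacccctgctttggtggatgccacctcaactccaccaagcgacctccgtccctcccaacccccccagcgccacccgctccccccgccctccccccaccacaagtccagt
Stretches of the peaks near the canonical TSSs of BCL6 and PRDM1 are shown next. Both genes had a peak within 1000 bp of that TSS in both JM1 lists and in REH, and none in Nalm6 or 697. These 2 were chosen after their values were seen. The BCL6 stretch (chr3:187744192-187744491, intron 1) is centred 1.13 kb downstream of the TSS. It has 4 copies, of which 1 extends to TGGGAA. The PRDM1 stretch (chr6:106086875-106087174, intron 1) is centred 0.688 kb downstream of the TSS, which it does not contain. It has 1 copy, a GC content of 31.0% and a single CpG.
BCL6: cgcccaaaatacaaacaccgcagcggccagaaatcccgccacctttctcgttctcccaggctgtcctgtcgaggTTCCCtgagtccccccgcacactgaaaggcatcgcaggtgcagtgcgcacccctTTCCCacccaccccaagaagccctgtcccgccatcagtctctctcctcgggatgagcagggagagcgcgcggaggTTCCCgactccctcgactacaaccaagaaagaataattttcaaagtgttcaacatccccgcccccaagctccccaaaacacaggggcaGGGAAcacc
PRDM1: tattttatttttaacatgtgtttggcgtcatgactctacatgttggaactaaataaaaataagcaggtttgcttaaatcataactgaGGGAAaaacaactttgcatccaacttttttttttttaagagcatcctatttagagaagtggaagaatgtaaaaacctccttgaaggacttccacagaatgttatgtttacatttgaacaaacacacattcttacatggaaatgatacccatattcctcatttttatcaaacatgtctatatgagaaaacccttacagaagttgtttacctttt

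All 10 genes had an Ikaros peak near a TSS in 4 of the lists, and 7 did in 697. The share of all protein-coding genes that passed the same rule was 81.3% in treated JM1, 74.4% in treated Nalm6, 81.9% in REH, 49.5% in 697 and 58.8% in untreated JM1, so a promoter peak was common in every list. BACH2, IRF4, IRF8, POU2AF1, POU2F2, MEF2C and KLF2 had one in all 5 lists, against 41.8% of all genes. BCL6, PRDM1 and ID3 had one in all lists but 697, a pattern seen at 13.7% of genes. The genes have between 2 (KLF2) and 52 (MEF2C) annotated TSSs, and a gene with more TSSs passes more readily. At the canonical TSS alone, the counts were 10 in treated JM1 (78.1% of all genes), 7 in Nalm6 (70.0%), 10 in REH (78.9%), 7 in 697 (45.1%) and 9 in untreated JM1 (53.2%). BACH2, IRF4, IRF8, POU2AF1 and KLF2 had a canonical peak in all 5 lists, against 36.2% of genes.

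The lists held 88692 peaks in treated JM1, 70894 in treated Nalm6, 83563 in REH, 19652 in 697 and 37448 in untreated JM1, and of these 78, 62, 69, 17 and 41 were at the 10 genes. The authors' peak score is a whole number with no stated definition, so it is read only within a list, as a percentile of that list with ties at their mid rank. The median score was 18 in treated JM1, 20 in Nalm6, 21 in REH, 22 in 697 and 15 in untreated JM1. The highest-scored promoter peak of each gene stood at a median percentile of 93.5 in treated JM1, 76.2 in Nalm6, 93.2 in REH, 70.2 in 697 and 81.6 in untreated JM1. Over all genes with a promoter peak, the same median was 90.2, 86.2, 89.4, 68.2 and 75.7 in that order of lists. The 10 genes were thus above it in 4 lists and below it in Nalm6, where ID3, BCL6 and POU2AF1 had the lowest percentiles. A gene with more TSSs has more windows from which its highest peak is taken, and the genes were not matched for this. The 697 value rests on 7 genes.

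**Figure D1:**
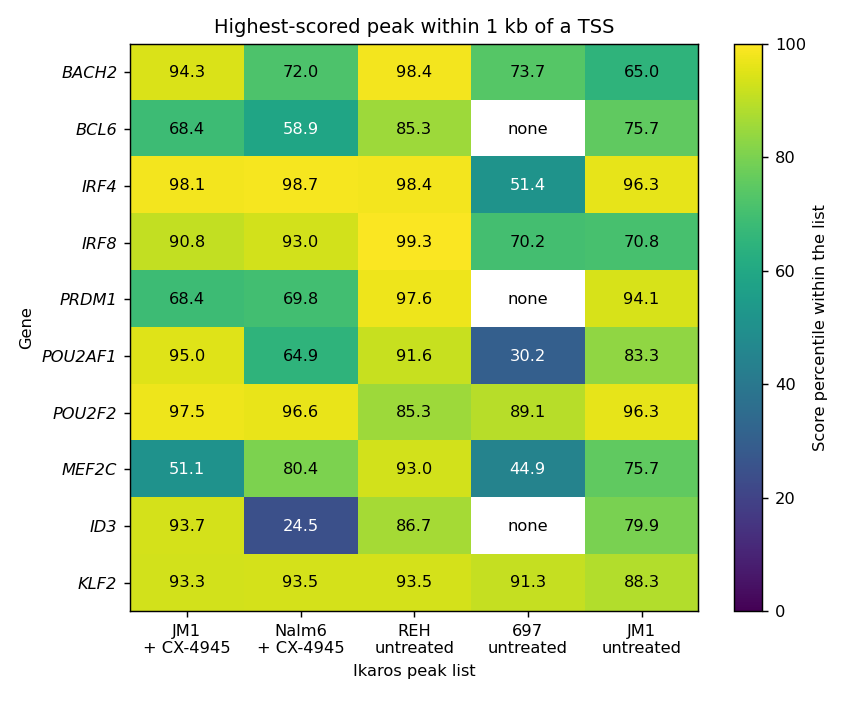
Within-list score percentile (colour and number) of the highest-scored peak within 1000 bp of any TSS, for the 10 genes (rows) in the 5 lists (columns), with "none" where no such peak was listed. IRF4 is above 96 in every list but 697 (51.4), KLF2 lies between 88.3 and 93.5 in all 5, and BCL6, PRDM1 and ID3 have none in 697.

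Among the repressors, BACH2 (chromosome 6, 89926528 to 90296843, minus strand) had 1 promoter peak per list, over exon 1 and intron 1 of its canonical transcript. Its score was 46 in treated JM1 (percentile 94.3), 28 in Nalm6 (72.0), 96 in REH (98.4), 33 in 697 (73.7) and 17 in untreated JM1 (65.0). REH and treated JM1 placed this peak highest, and untreated JM1 lowest. BACH2 is the longest of the genes at 370 kb, and most of its body peaks clustered near the far end of the gene. A region over exon 7, 346 kb from the canonical TSS, was in 4 lists, with scores of 20 in treated JM1, 34 in Nalm6, 35 in REH and 13 in untreated JM1. The authors' annotation gave 9 peaks inside BACH2 to AL121787.1 and 3 to GJA10, which a search by gene name alone would not return.

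BCL6 (chromosome 3, 187721377 to 187745725, minus strand) had peaks at 2 separate places near the start of the gene. At the canonical TSS the score was 12 in treated JM1 (percentile 11.9), 37 in REH (83.6) and 19 in untreated JM1 (75.7), and no peak was listed in Nalm6 or 697. A region in intron 1, 5.96 kb from that TSS and near other annotated TSSs, scored 22 in treated JM1 (68.4), 17 in Nalm6 (34.8), 39 in REH (85.3) and 16 in untreated JM1 (58.2). The intronic region was thus the higher-scored of both in treated JM1 and REH, and the canonical one in untreated JM1. Further along the gene, 16.0 kb or more from the TSS, the percentiles were at most 58.9, in Nalm6. The 697 list had 0 peaks at BCL6.

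PRDM1 (chromosome 6, 105993463 to 106109939, plus strand) also had 0 peaks in 697. At its canonical TSS the score was 22 in treated JM1 (68.4), 86 in REH (97.6) and 27 in untreated JM1 (94.1), and none was listed in Nalm6. In a region of peaks 92.7 kb upstream, at the far start of the gene record, the highest peak scored 14 in treated JM1 (26.0), 27 in Nalm6 (69.8), 55 in REH (92.5) and 28 in untreated JM1 (95.0). That Nalm6 peak did not overlap the REH and untreated JM1 ones, and another Nalm6 peak that did scored 14 (18.9). The authors' annotation gave the upstream region to RN7SKP211. The canonical and upstream places stood at 68.4 and 26.0 in treated JM1, against 94.1 and 95.0 in untreated JM1. A canonical peak in both JM1 lists and REH but in neither 697 nor Nalm6 was found at these 2 genes, BCL6 and PRDM1, and at 2.09% of all genes. This pattern of lists was picked after the values at both genes were seen, so the share is no test of it. The lists that hold these canonical peaks share an antibody, and its part was not tested.

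**Figure D2:**
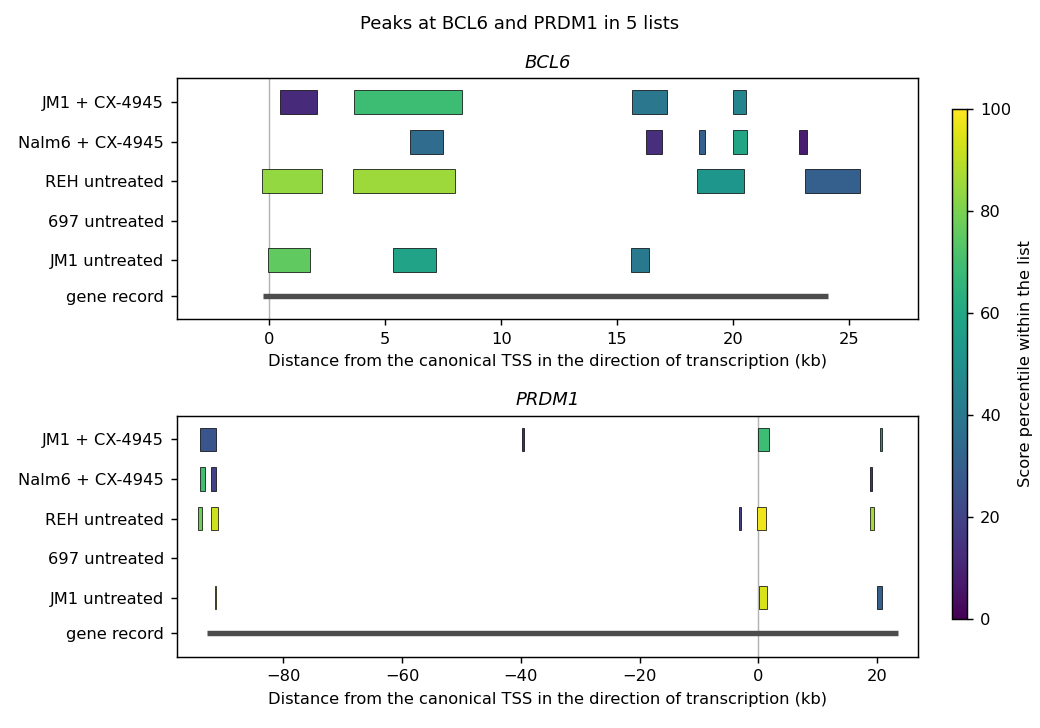
Peaks at BCL6 (top) and PRDM1 (bottom) in the 5 lists, by distance from the canonical TSS in kb, each box a peak coloured by its score percentile within the list and the grey bar the gene record. Boxes within 1000 bp of distance 0 are present in both JM1 lists and REH, and the 697 rows are empty.

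An interferon regulatory factor gene had the highest promoter percentile of the group in 4 lists, IRF8 in REH and IRF4 in treated JM1, Nalm6 and, tied with POU2F2, untreated JM1. IRF4 (chromosome 6, 391739 to 411443, plus strand) scored 74 in treated JM1 (98.1), 69 in Nalm6 (98.7), 97 in REH (98.4), 23 in 697 (51.4) and 30 in untreated JM1 (96.3). The 697 list was the 1 in which the IRF4 peak stood in the middle of the list. The peak was 6571 bp wide in treated JM1, 2634 bp in Nalm6, 3079 bp in REH cells, 2219 bp in the 697 list and 2700 bp in untreated JM1. In treated JM1 its centre fell in intron 2, 2.25 kb from the TSS.

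IRF4 was also flanked by a chain of sites. The authors named 16 treated JM1 peaks, 12 Nalm6, 13 REH, 3 in 697 and 7 untreated JM1 peaks for it, spread from 22.8 kb upstream to 64.4 kb downstream of its TSS. As many or more peaks were given to 1.55, 2.61, 2.56, 10.4 and 3.82% of the gene names in these lists. A downstream region at 32.5 kb was in all 5 lists, with scores of 29 in treated JM1 (83.7), 45 in Nalm6 (91.4), 37 in REH (83.6), 33 in 697 (73.7) and 14 in untreated JM1 (40.3). In 697 that downstream peak scored above the IRF4 promoter peak. A region at 55.2 kb was in all 5 lists as well, with the highest peak of each list between percentile 30.2 in 697 and 88.3 in untreated JM1. The 697 peak and that untreated JM1 peak did not overlap each other. The name comes from the authors' annotation, and these distal peaks have no measured tie to IRF4.

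IRF8 (chromosome 16, 85899116 to 85922606, plus strand) had a compact peak at its TSS, between 543 and 1219 bp wide. The peak covered the canonical TSS in all lists but 697, where it ended just short of it. The score of this IRF8 peak was 37 in treated JM1 (90.8), 48 in Nalm6 (93.0), 118 in REH (99.3), 31 in 697 (70.2) and 17 in untreated JM1 (65.0). Untreated JM1 had another IRF8 peak in intron 1, 3.33 kb from the TSS, with a score of 18 (70.8), which did not overlap a treated JM1 peak. A region over intron 6, 15.8 kb from the TSS in treated JM1, scored 18 there (51.1), 23 in Nalm6 (58.9) and 28 in REH (70.4), and was in neither 697 nor untreated JM1.

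The octamer factor gene POU2F2 (chromosome 19, 42086110 to 42196585, minus strand) had more peaks than any other gene of the group. It held 20 in treated JM1, 15 in Nalm6, 16 in REH, 7 in 697 and 10 in untreated JM1. The authors named 14, 11, 11, 4 and 8 peaks for it in that order of lists. As with IRF4, few gene names had as many or more: 2.15, 3.18, 3.66, 5.39 and 2.69% in the same order. Its highest-scored promoter peak outside REH was not at the canonical TSS but 44.2 to 44.7 kb upstream. There the score was 66 in treated JM1 (97.5), 58 in Nalm6 (96.6), 38 in REH (84.5), 46 in 697 (89.1) and 30 in untreated JM1 (96.3). At the canonical TSS it was 29 in treated JM1 (83.7), 22 in Nalm6 (55.6), 31 in REH (76.3) and 32 in 697 (71.9), with no peak in untreated JM1. The upstream start was thus the higher-scored of both in every list. The peaks over the body sequence given above scored 21 in treated JM1 (64.7), 21 in Nalm6 (52.0), 24 in REH (59.5), 28 in the 697 list (64.1) and 13 in untreated JM1 (29.8). Of the peaks inside POU2F2, the authors' annotation gave 13 to AC010247.2 and 5 to AC010247.1, and antisense RNA genes overlap the record, so sites of POU2F2 and theirs cannot be told apart by position.

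POU2AF1 (chromosome 11, 111352255 to 111455630, minus strand) encodes the coactivator that binds POU2F2 on DNA. At its canonical TSS it scored 49 in treated JM1 (95.0), 25 in Nalm6 (64.9), 52 in REH (91.6), 17 in 697 (30.2) and 21 in untreated JM1 (83.3). The 697 peak was 482 bp wide and the single 697 peak at the gene. A far upstream start at 77.3 kb had peaks in all lists but 697, with scores of 18 in treated JM1, 18 in Nalm6, 24 in REH and 10 in untreated JM1, the last being the lowest score a list holds. Treated JM1 alone of the 5 lists had a peak in intron 1, 12.3 kb from the TSS, with a score of 18 (51.1), and another 16.2 kb upstream of the TSS with a score of 35 (89.6).

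**Figure D3:**
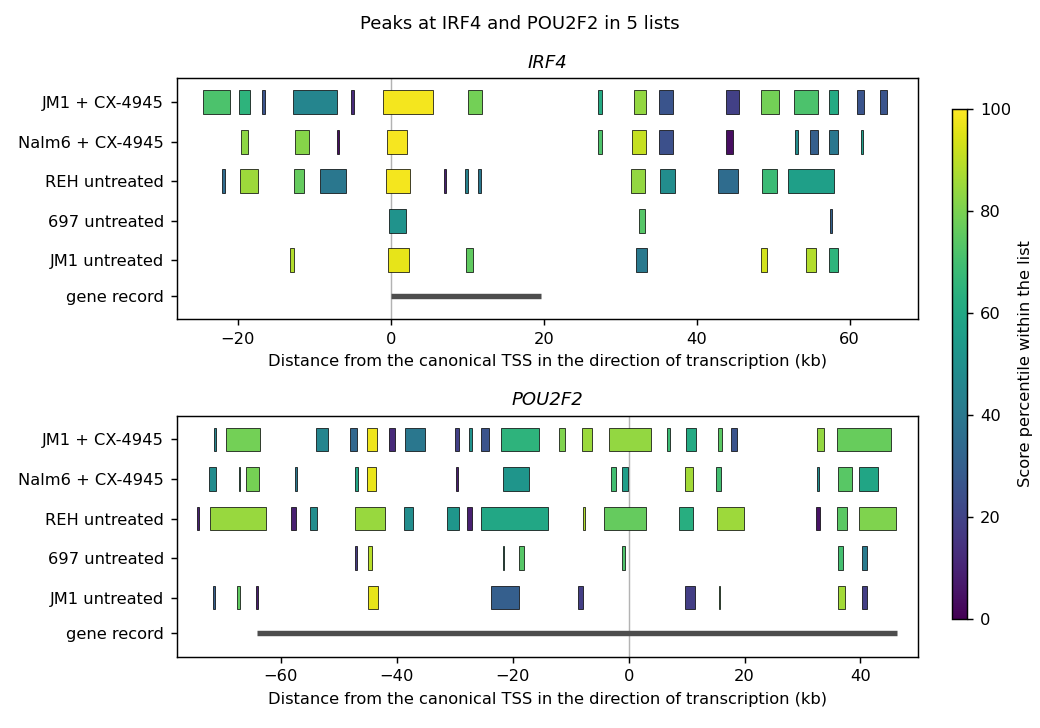
Peaks at IRF4 (top) and POU2F2 (bottom) in the 5 lists, by distance from the canonical TSS in kb, each box a peak coloured by its score percentile within the list and the grey bar the gene record. The IRF4 chain runs from 22.8 kb upstream to 64.4 kb downstream in treated JM1, and the POU2F2 peaks 44.2 to 44.7 kb upstream have percentiles between 84.5 and 97.5.

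MEF2C (chromosome 5, 88717117 to 88904257, minus strand) had few and narrow peaks for its length. At the canonical TSS the score was 17 in treated JM1 (45.6), 57 in REH cells (93.0), 21 in the 697 list (44.9) and 19 in untreated JM1 (75.7), and none was listed in Nalm6. A start 6.44 kb upstream scored 18 in treated JM1 (51.1), 33 in Nalm6 (80.4), 32 in REH (77.8) and 13 in untreated JM1 (29.8). The authors' annotation gave 7 of the MEF2C promoter peaks to the antisense gene MEF2C-AS1, which starts in the same stretch, and a ChIP peak there belongs to neither strand.

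ID3 (chromosome 1, 23557926 to 23559501, minus strand) is a gene of 1576 bp. Its promoter peak scored 44 in treated JM1 (93.7), 15 in Nalm6 (24.5), 41 in REH (86.7) and 20 in untreated JM1 (79.9). In untreated JM1 the peak was 4849 bp wide and centred 2.48 kb beyond the TSS. It reached past the end of the gene, where the other lists had separate peaks not counted for ID3. Those scored 73 in treated JM1 (98.0), 31 in Nalm6 (77.5), 104 in REH (98.8) and 37 in 697 (79.9). The untreated JM1 promoter value is thus not like for like. A site 9.03 kb upstream was in all 5 lists, with scores of 28 in treated JM1 (82.3), 34 in Nalm6 (81.8), 69 in REH (95.5), 44 in 697 (87.5) and 23 in untreated JM1 (88.3). Of the peaks counted for ID3, the upstream site had the higher percentile than the promoter, or the only one, in Nalm6, REH, 697 and untreated JM1. In treated JM1 the promoter did.

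KLF2 (chromosome 19, 16324826 to 16328685, plus strand) had the promoter peak with the narrowest span of percentiles in the group. Its score was 43 in treated JM1 (93.3), 49 in Nalm6 (93.5), 59 in REH (93.5), 49 in 697 (91.3) and 23 in untreated JM1 (88.3). A narrow site 10.8 kb downstream scored 56 in treated JM1 (96.3), 26 in Nalm6 (67.4), 17 in REH (29.9) and 29 in untreated JM1 (95.7), and 697 had none. In both JM1 lists this downstream site outscored the KLF2 promoter, and in Nalm6 and REH it did not.

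The comparison of CX-4945-treated with untreated JM1 cells addresses the study's question of how CK2 inhibition alters the Ikaros binding profile. All 10 genes had a promoter peak in both JM1 lists, against 58.3% of all genes. Of the 10, 0 had it in just the treated list, against 23.0% of all genes, and 0 in just the untreated list, against 0.565%. At the canonical TSS, 9 of the 10 had a peak in both lists, against 52.6% of all genes, and POU2F2 had its canonical peak in the treated list alone. The treated list was the longer one at 88692 peaks against 37448, and a longer list gives more peaks at any gene.

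Ranked within its own list, each gene's highest-scored promoter peak stood between 1664 and 40978 in treated JM1, and between 1261 and 11931 in untreated JM1. IRF4 and POU2F2 were the first 2 of the group in both lists, at ranks 1664 and 2188 in treated JM1 and tied at 1261 in untreated JM1. PRDM1 and BCL6 tied at rank 26547 in treated JM1, against 2026 and 8238 in untreated JM1. MEF2C stood at 40978 in treated JM1 and at 8238 in untreated JM1. BACH2 stood at 4976 in treated JM1 and 11931 in untreated JM1. Ranks in lists of different length show no change in binding by themselves. With each list limited to its 19652 top-scored peaks, 7 of the 10 genes had a promoter peak in treated JM1 (60.5% of all genes) and 10 in untreated JM1 (45.3%). Of the equal lists, the treated one alone then held 0 of the 10 (21.1% of all genes) and the untreated one alone held BCL6, PRDM1 and MEF2C (5.87%). Over equal lists, 5 of the 10 had a promoter peak in Nalm6 (54.5%), 10 in REH (62.2%) and 7 in 697 (49.5%), and IRF4, IRF8, POU2F2 and KLF2 had one in all 5 (26.5%). The Nalm6 cut fell among peaks tied at a score of 28, which were kept in order of chromosome and start. The BACH2 peak in Nalm6, with that score and a best rank of 19112, was left out by this order alone. With it kept, BACH2 would also have had one in all 5.

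**Figure D4:**
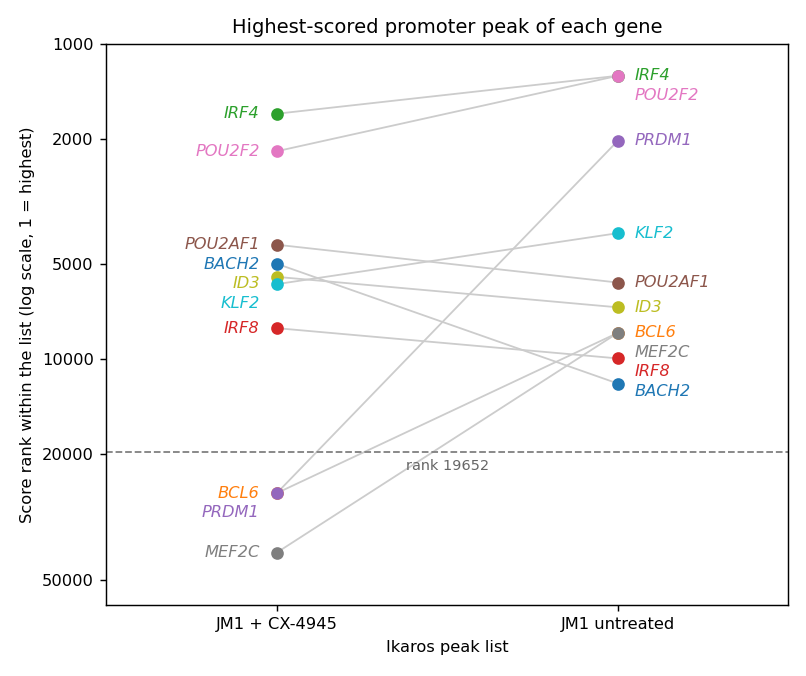
Rank by score (log axis, 1 at the highest score) of the highest-scored promoter peak of each gene within the treated JM1 list (left, 88692 peaks) and the untreated JM1 list (right, 37448 peaks), with grey lines joining the same gene and a dashed line at rank 19652. BCL6, PRDM1 and MEF2C lie past the dashed line in the treated list, and all 10 genes lie within it in the untreated list.

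Peak by peak, 36 of the 78 treated JM1 peaks at the genes overlapped an untreated JM1 peak by at least 1 bp (46.2%, 95% interval 34.8 to 57.8), against 29.0% of all treated peaks. In the other direction 38 of 41 untreated peaks overlapped a treated one (92.7%, 80.1 to 98.5), against 84.1% of all untreated peaks. These shares pool kinds of peak. Among untreated promoter peaks, 18 of 20 at the genes did (90.0%), against 96.2% of all promoter peaks. Body peaks did in 9 of 10 cases (90.0%), against 78.0%. Peaks outside the genes did in 11 of 11, against 73.5% of peaks outside all promoters and bodies. The former lie outside their own gene but can lie in another, so these sets are not quite alike. In treated JM1, promoter peaks at the genes were shared more often than body peaks: 19 of 26 (73.1%, 52.2 to 88.4) against 7 of 30 body peaks (23.3%, 9.93 to 42.3). Over the whole treated list these shares were 59.0% and 19.4%, so the same split of promoter and body was present in all genes. Treated peaks outside the genes had an untreated partner in 10 of 22 cases (45.5%, 24.4 to 67.8). Of treated peaks outside all promoters and bodies, again a set not quite alike, 17.7% did. The 42 treated peaks without an untreated partner were spread over 9 genes, with 12 at POU2F2, 9 at IRF4, 8 at POU2AF1 and 5 at IRF8, and none at ID3. The 3 untreated peaks without a treated partner were 1 each at BACH2, IRF8 and POU2AF1, with scores of 16 to 18. The treated list is the longer one, and with both limited to the 37448 top-scored peaks, 12 of 36 treated and 15 of 41 untreated peaks at the genes had no partner, in place of 42 and 3. Over all peaks of those equal lists, 49.2% of treated and 34.6% of untreated ones had none.

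Merging overlapping peaks of all lists gave 92 regions, of which 27 were at promoters, 40 in gene bodies and 25 outside the genes. Promoter regions were in 4 or 5 lists in 19 of 27 cases, against 58.7% of such regions over all genes, made by the same rule, and in all 5 in 8 cases, against 36.6%. Body regions were in 4 or 5 lists in 2 of 40 cases, against 12.3% over all genes, and in 1 or 2 lists in 31 cases, against 73.5%. The split between promoters and bodies was thus present over all genes as well. One of the 8 promoter regions in all 5 lists is at ID3, where the 697 peak overlaps the merged region but lies more than 1000 bp from the TSS. Regions outside the genes were in 4 or 5 lists in 6 of 25 cases, against 11.1% of such regions over all genes. They were in all 5 in 3 cases (12.0%), at IRF4 and ID3, against 3.26%, and in 1 or 2 lists in 15 cases, against 74.1%. Regions found in 1 list alone numbered 14 in treated JM1 (17.8% of regions over all genes), 5 in Nalm6 (7.17%), 7 in REH (14.6%), 1 in 697 (0.64%) and 0 in untreated JM1 (2.24%), out of 92. The body peaks also scored lower, with a median percentile of 48.4 in treated JM1 against 68.4 for promoter peaks, 44.0 against 67.3 in Nalm6, 46.4 against 84.0 in REH, 41.3 against 70.2 in 697 and 35.0 against 73.2 in untreated JM1. These medians were not computed over all genes, so the gap cannot be read as particular to the 10 genes. Some of the 10 genes had a body peak in each list: 8 in treated JM1 (47.6% of all genes), 7 in Nalm6 (42.6%), 7 in REH (45.2%), 2 in 697 (16.8%) and 6 in untreated JM1 (29.6%). Per 100 kb of gene body there were 3.12 such peaks in treated JM1, 2.08 in Nalm6, 2.71 in REH, 0.52 in 697 and 1.04 in untreated JM1. The value over all genes was 2.71, 2.18, 2.53, 0.429 and 1.07 in the same order, so the pooled density of body peaks at the 10 genes was near that of all genes in every list. The pool joins unlike genes. POU2F2 (110 kb) held 13 of the 30 body peaks in treated JM1, 7 of 20 in Nalm6 and 9 of 26 in REH. It held 4 of 5 in 697 and 3 of 10 in untreated JM1. In treated JM1, BACH2 (370 kb) held 4 and MEF2C (187 kb) held 1.

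**Figure D5:**
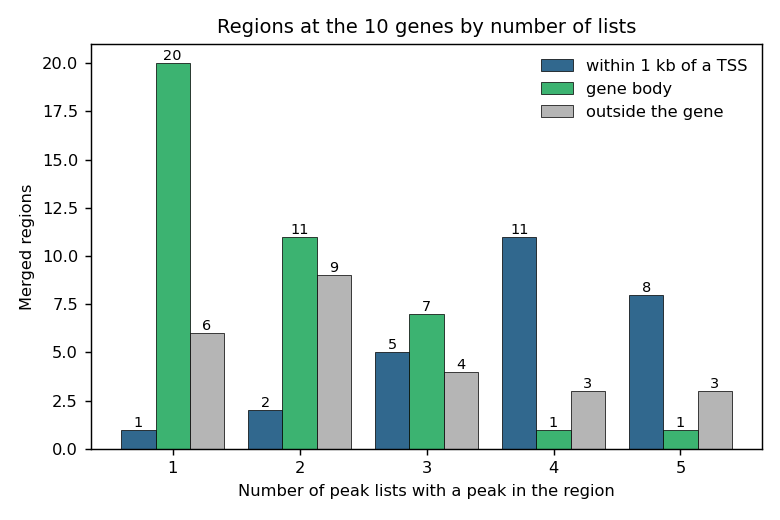
Number of merged regions at the 10 genes (vertical axis) by the number of lists that have a peak in the region (horizontal axis), for regions within 1000 bp of a TSS, in the gene body and outside the gene. Promoter regions are most often in 4 lists (11 regions) or 5 (8, of which the ID3 region has a 697 peak outside the TSS window), and body regions most often in 1 (20).

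The letters TGGGAA, counted on both strands in the 300 bp around each peak centre, were in 25.6% of the 78 treated JM1 windows at the genes (95% interval 16.4 to 36.8), against 27.6% of all treated JM1 peaks. The share was 14.5% in Nalm6 (6.86 to 25.8) against 26.3%, 29.0% in REH (18.7 to 41.2) against 27.5%, 11.8% in 697 (1.46 to 36.4) against 17.9%, and 31.7% in untreated JM1 (18.1 to 48.1) against 25.5%. The share of all peaks lay within the interval in 4 lists and, in Nalm6, just above its upper bound. The shorter GGGAA, which every TGGGAA contains, was in 73.1% of the windows at the genes in treated JM1, 62.9% in Nalm6, 76.8% in REH, 76.5% in 697 and 82.9% in untreated JM1. Over all peaks it was in 63.9%, 64.6%, 64.2%, 59.7% and 65.3%. That share lay below the interval at the genes in REH (65.1 to 86.1) and untreated JM1 (67.9 to 92.8) and inside it in the other lists. Among 35116 RefSeq promoters of the same length, on GRCh38, TGGGAA was in 24.0% and GGGAA in 65.0%. Windows of the same site in several lists share their sequence, so the shares of the lists are not independent.

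A list of 31 partners, relatives and known targets of the 10 factors gives the wider circuit. Of these, 29 had a promoter peak in treated JM1 (81.3% of all genes), 29 in Nalm6 (74.4%), 29 in REH (81.9%), 24 in 697 (49.5%) and 27 in untreated JM1 (58.8%), and 23 had one in all 5 lists (41.8%). The octamer factor POU2F1 had the highest percentile in both JM1 lists, with a score of 298 in treated JM1 (100) and 44 in untreated JM1 (99.3). It was followed in treated JM1 by the NF-kB subunit REL (144, 99.7) and the corepressor NCOR1 (85, 98.7), and in untreated JM1 by the BACH2 partner MAFK and the E protein TCF4 (35 and 98.2 each). Both JM1 lists held 26 of the 31, against 58.3% of all genes. S1PR1, a KLF2 target for lymphocyte egress, SPI1, a partner of IRF4 and IRF8 on DNA, and XBP1, a plasma cell factor downstream of PRDM1, had a promoter peak in treated JM1 cells but not in untreated ones, which held for 23.0% of all genes. Their treated scores were 28 (82.3), 23 (71.6) and 39 (91.8).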

How the data were processed

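Peaks were Ikaros ChIP-seq peaks from 5 lists, matched to their groups by the line and treatment in each list's name. Bowtie2 2.3.4.3, MACS2 2.1.1, HOMER 4.10 and GRCh38 appear per the submitters' processing notes, and BBDuk trimming per the labels' protocols. Not given in the sources used here were call settings, controls and the definition of the score. The score, class and gene name of a peak were made by the authors before deposit, per the file headers, and the lowest score was 10 in each list. Read depth is unknown here, so the number of peaks is no measure of binding.

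Coordinates were used as deposited, and whether a start counts from 0 or 1 is not stated. No peak (0) ran past a chromosome end, and 97.8 to 98.9% of the peaks that the authors classed as promoter were centred within 1000 bp of their transcript's TSS in GENCODE release 44. A promoter peak had any part within 1000 bp of a TSS of the gene, a body peak overlapped the gene record outside those windows, and the rest carried the gene's name only. Canonical transcripts were those tagged so in GENCODE. Overlap meant at least 1 bp. Percentiles take ties at mid rank and ranks at the best. Where the cut of an equal-length list fell among tied scores, peaks were kept in order of chromosome and start. Shares have 95% exact Clopper-Pearson intervals, which cover counting error only. No test across samples was possible with 1 list per condition.

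The 10 genes and the list of 31 partners were chosen with earlier results of these data known. All 10 are named. Partners are named if among the 3 highest percentiles in a JM1 list, absent from every list, or in exactly 1 JM1 list. Sequences follow the highest median percentile among sites in all 5 lists, apart from the BCL6 and PRDM1 windows, which were chosen after their values were seen. Some items that these rules select are not reported here. Alternatives were other TSS windows, the peak centre, canonical TSSs, the authors' promoter class and name, equal-length lists, scores at or above the median and stricter overlaps. Scripts (Python 3.11.15, pandas 2.3.3, scipy 1.17.1, pysam 0.24.0) were tested on simulated data with planted peaks and motifs.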

Additional observations from a re-analysis of the deposited data

How the results depend on the processing

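The alternatives limit these results through list length, a cut on the score, the authors' naming, the gene record used, the overlap rule and the motif settings. Counted by the authors' promoter class with the gene's own name, the genes with a promoter peak numbered 6 in treated JM1, 4 in treated Nalm6, 6 in REH and 5 in untreated JM1. With equal lists of top-scored peaks, 5 did in Nalm6, where BACH2 was left out by the order among tied scores. With the canonical transcript as gene body, body peaks numbered 15 in treated JM1, 12 in Nalm6, 14 in REH and 2 in 697. With equal lists they numbered 6 in treated JM1, 1 in Nalm6, 6 in REH and 4 in untreated JM1, and with scores at or above the median 15, 9, 13, 2 and 4 (treated JM1, Nalm6, REH, 697, untreated JM1). Treated JM1 peaks overlapped by an untreated one numbered 17 under a reciprocal overlap of 50% and 18 at scores at or above the median. Treated peaks alone numbered 12 with equal JM1 lists and 26 at scores at or above the median. Untreated peaks alone numbered 24 under the reciprocal rule, 5 when the overlap had to reach 50% of the shorter peak, 15 with equal JM1 lists and 9 at scores at or above the median. Regions in all 5 lists numbered 6 with equal lists. Over whole peaks TGGGAA was in 66.7% of treated JM1 peaks, 43.5% of Nalm6, 73.9% of REH, 41.2% of 697 and 68.3% of untreated JM1, and GGGAA in the 300 bp windows in 73.1, 62.9, 76.8, 76.5 and 82.9%. Longer windows and a shorter motif give more matches by construction, and otherwise the cause was not tested. These were 37 of 100 values recomputed, and the other 63 stayed within the limit set for their kind. No paired analysis was possible because each condition had 1 list and no result comes from a test, and for the same reason no replicate could be left out.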
